A study of Arabidopsis thaliana with 9 samples.

Results

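Genes that lie close to the centromeres of the 5 Arabidopsis thaliana chromosomes were followed in the lines iae1, iae2 and B1798. The genes were chosen by locus number. They are single-gene probe sets whose symbol is an AGI locus code between AT1G35000 and AT1G43999, AT2G04000 and AT2G13999, AT3G29000 and AT3G44499, AT4G03500 and AT4G09999, or AT5G27000 and AT5G35499. Probe sets of the organelle block of the array and the locus AT5G28110 were left out. These ranges held 1250 of the 22810 probe sets. A probe set was kept when its signal reached the 40th percentile of its own array, a level between 23.2 and 26.0, on at least 3 of the 9 arrays, which left 301 genes, called members here. Genes in the ranges that carry a gene name instead of a locus code are not members.

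DNA next to a centromere is packed as heterochromatin. It is rich in transposons and their remains, carries dense DNA methylation and repressive histone marks, and seldom takes part in crossing over. Genes with ordinary functions sit between the repeats, and some of them stay active. Silencing there depends on DNA methyltransferases, chromatin remodellers and small RNAs, and its loss is known to release transposon transcripts.

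Each line was measured on 3 Affymetrix ATH1 arrays. Lines of the iae series were described in studies of mutants with increased excision of the maize transposon Ac, and the series title names the genetic basis of their phenotypes as the question. All 3 lines were in the Ler ecotype at growth stage 1.0 and received 1% sucrose in a growth room. Total RNA came from the apical meristem bud, cotyledons, hypocotyl and crown, with a pool of 30 plants stated once for the series. No label gives an allele, an age, a transgene or a control, and B1798, being without an iae name, served as the reference. No label says whether the arrays of a line stand for separate cultures. The p-values therefore speak only of the spread between these samples, and it may be technical. The probes were designed on sequence of the Columbia accession, and all 3 lines are Ler. As a check of the tissue, the antenna protein gene LHCB4.2 lay between 1430.4 and 1944.2 in B1798 and iae1. In iae2 it was higher, between 2510.2 and 2871.5. The beta-glucosidase gene PYK10, a marker of roots and hypocotyl, lay between 3848.1 and 4395.4 in B1798 and iae1. In iae2 it was lower, between 3210.6 and 3581.2. For both genes the iae2 arrays did not overlap the others, and whether the tissue make-up differed between the lines was not tested.

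Signs of RNA quality differed between the lines. B1798 had a ratio of 3' to 5' GAPDH signal of 2.73 ± 0.422 (SD, n = 3), which was 2.42 ± 0.0875 for iae1 and 1.86 ± 0.126 for iae2. An exact two-sided permutation test against B1798 gave p = 0.4 with iae1 and p = 0.1 with iae2, the smallest p that 3 arrays against 3 allow. The 25S rRNA signal of each iae1 array, at least 4414.7, exceeded that of all other arrays. The members together made up 1.42% of all signal in B1798, 1.43% in iae1 and 1.45% in iae2. B1798 had a median member signal of 52.0 ± 1.07, iae1 of 54.4 ± 2.95 and iae2 of 55.2 ± 0.1.

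Few of the loci in these ranges reached the filter level. Of the 1250 probe sets, 651 (52.1%) stand for loci that the gene table lists as pseudogenes, a class in which it places many transposon remains, and 599 for protein-coding genes. Outside the ranges, 341 of 10677 probe sets with a locus-code symbol (3.19%) were pseudogenes. The filter level was reached by 43 of 651 pseudogenes (6.61%) in the ranges and by 39 of 341 (11.4%) outside. For protein-coding genes the numbers were 258 of 599 (43.1%) in the ranges and 6375 of 10332 (61.7%) outside. The members were therefore mostly protein-coding, and the 949 probe sets below the level had a median signal of 4.38, with no single value above 42.9. At the edge of the rule, 24 members reached the level on exactly 3 arrays, with mean signals of 19.8 to 32.2, and 17 probe sets reached it on exactly 2, with means of 16.2 to 23.1.

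**Figure D1:**
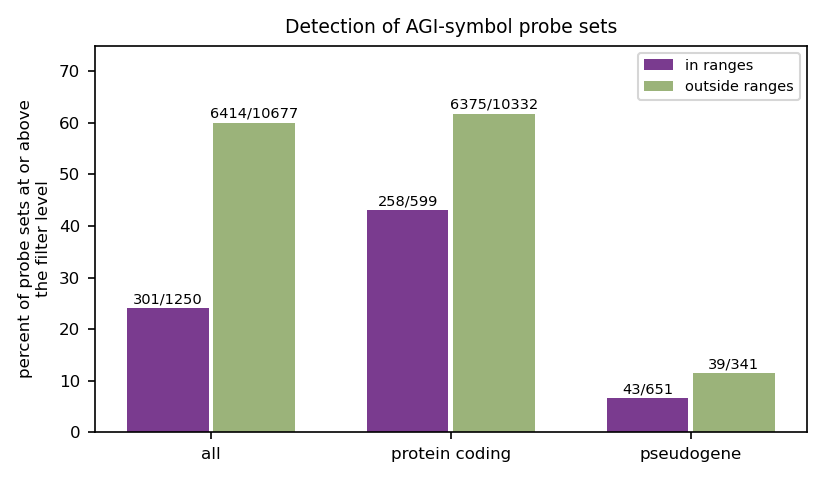
Percent of probe sets with a locus-code symbol that reached the filter level on at least 3 arrays, for the pericentromeric ranges and for the rest of the genome, with the counts above each bar. In the ranges 6.61% of pseudogenes and 43.1% of protein-coding genes reached it, against 11.4% and 61.7% outside.

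The share of probe sets that passed ran from 55 of 296 (18.6%) in the chromosome 3 range to 62 of 181 (34.3%) in the chromosome 5 range, with 45 of 186 on chromosome 1, 75 of 327 on chromosome 2 and 64 of 260 on chromosome 4. Over the 9 arrays the median signal of the members was 51.8, and that of the 6414 locus-code genes passing outside the ranges was 71.8. Signals of different probe sets also depend on their probes, so these medians are not amounts of transcript.

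The 5 members with the highest probe-set signals were AT5G27700, AT2G05540, AT5G27850, AT1G36980 and AT3G29240, of which 2 encode ribosomal proteins. AT5G27700, which encodes a cytosolic ribosomal protein of the small subunit, gave signals of 2165.9, 2354.3 and 2615.2 in B1798, 2696.5, 2320.0 and 2224.0 in iae1, and 2116.9, 2177.4 and 2208.9 in iae2. The lines overlapped and no contrast passed, with a log2 fold change of 0.02 for iae1 (adjusted p = 0.932) and of -0.13 for iae2 (adjusted p = 0.372). AT1G36980 had means of 1789 ± 47.4 in B1798, 1752 ± 55.4 in iae1 and 1537 ± 90.3 in iae2. Its 3 iae2 arrays were all below the 3 of B1798, but the difference did not pass (log2 fold change -0.22, adjusted p = 0.0507). The other 3 changed and are described with their contrasts. At the other end stand the members whose line means differed least. AT4G09150 had means of 91.0, 90.5 and 90.0, AT3G29010 of 31.4, 31.0 and 31.4, and AT3G32260 of 23.9, 23.4 and 24.1 in B1798, iae1 and iae2. Over the whole set, 221 of 301 members (73.4%) were called in none of the 3 contrasts between lines.

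The comparison of iae1 with B1798 asks which of these genes differ in the first iae line. Of 301 members 17 were called at an adjusted p below 0.05 by limma, 8 higher and 9 lower. The background over all 14404 tested probe sets was 7.21%, with 3.8% higher and 3.42% lower, and among the 6414 locus-code genes outside the ranges 5.86%. The members' 5.65% is near these backgrounds and is no result about the ranges. The median log2 fold change, on the log2(signal + 16) scale used throughout, was 0.00 for the members and 0.01 for all probe sets. For 64 members (21.3%) the iae1 and B1798 arrays were without overlap, against 24.7% of all tested probe sets. In RNA from whole tissue, fewer cells of a type and less RNA per cell cannot be told apart.

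Among the rises in iae1, the terpene synthase family gene AT3G29410 stood first. Its signals were 59.8, 50.1 and 61.0 in B1798, 158.6, 176.6 and 146.9 in iae1, and 105.5, 77.1 and 66.9 in iae2. Every iae1 array exceeded every array of the other lines. The log2 fold change was 1.28 ± 0.13 (SE, adjusted p = 1.09e-05) against B1798 and 0.85 ± 0.13 (adjusted p = 0.00021) against iae2. In iae2 it was 0.43 ± 0.13 against B1798 (adjusted p = 0.0295), a call lost without B1798 replicate 2 or iae2 replicate 1 (adjusted p up to 0.146). That call was also lost with the ratio of 3' to 5' GAPDH signal as a covariate (0.30, adjusted p = 0.601). AT3G29410 was the member called at 2-fold or more in iae1, 1 of 301, where 0.465% of all probe sets were.

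AT3G29970, of the B12D family first described in barley grains, gave 63.7, 78.1 and 82.5 in B1798, 131.8, 154.0 and 137.8 in iae1, and 98.6, 107.9 and 104.3 in iae2. The 3 lines did not overlap, with iae2 between the others. It rose by a log2 fold change of 0.80 ± 0.10 in iae1, at an adjusted p of 0.000113, and by 0.40 ± 0.10 in iae2, at 0.0098. AT2G04790 had signals of 67.6, 82.4 and 70.3 in B1798, 112.8, 115.1 and 113.0 in iae1, and 76.8, 66.2 and 76.5 in iae2. Here iae2 overlapped B1798, and the iae1 arrays were higher than those of B1798 (log2 fold change 0.54 ± 0.10, adjusted p = 0.00256) and of iae2 (0.54 ± 0.10, adjusted p = 0.000827).

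AT2G07140, which also rose, and AT3G29240 and AT2G10940 are described with iae2. The calls of the remaining rises depended on single arrays. AT1G35617 gave 43.7, 27.4 and 24.8 in B1798 and 41.5, 103.3 and 87.4 in iae1, where the lowest iae1 array overlapped B1798 (log2 fold change 0.92 ± 0.25, adjusted p = 0.0341). Its call was lost when replicate 2 or 3 of either line was left out (adjusted p up to 0.144). AT4G04630 rose from 48.5 ± 11.6 to 78.1 ± 11.9 (0.55 ± 0.14, adjusted p = 0.0253) and to 85.3 ± 11.5 in iae2 (0.66 ± 0.14, adjusted p = 0.00361). Its iae1 call was lost without B1798 replicate 2 or iae1 replicate 1 or 3 (adjusted p up to 0.115). With the ratio of 3' to 5' GAPDH signal as a covariate neither call passed (adjusted p = 0.0983 in iae1 and 0.318 in iae2).

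Of the 9 falls in iae1, the gene of the leucine-rich repeat receptor kinase AT4G08850, known as MIK2 and as a sensor of secreted peptides, had signals of 106.0, 103.9 and 108.2 in B1798, 74.4, 64.8 and 79.0 in iae1, and 71.7, 85.3 and 87.8 in iae2. Both iae lines lay below B1798 without overlap. The log2 fold change was -0.46 ± 0.10 for iae1 (adjusted p = 0.00914) and -0.33 ± 0.10 for iae2 (adjusted p = 0.0314). The iae2 call was lost when any B1798 array or iae2 replicate 1 or 2 was left out (adjusted p up to 0.136). AT3G30390, of the amino acid transporter family, fell from 1055 ± 74.8 to 767.7 ± 17.8 in iae1 (-0.45 ± 0.08, adjusted p = 0.00424) and to 845.5 ± 88.2 in iae2 (-0.32 ± 0.08, adjusted p = 0.0167). Its iae2 call was lost without B1798 replicate 1 or 2 or iae2 replicate 3 (adjusted p up to 0.0818). With the ratio of 3' to 5' GAPDH signal as a covariate neither gene passed in iae2. AT4G08850 was then at -0.28 (adjusted p = 0.513) and AT3G30390 at -0.49 (adjusted p = 0.107).

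AT2G04280 gave 166.4, 203.6 and 192.8 in B1798, 138.7, 131.6 and 119.1 in iae1, and 201.9, 190.4 and 196.4 in iae2. Its iae1 arrays were all below the other 6, with a log2 fold change of -0.48 ± 0.09 (adjusted p = 0.00368) against B1798 and -0.54 ± 0.09 (adjusted p = 0.000456) against iae2. The glycine-rich protein gene AT2G05540 fell from 2621 ± 64.4 to 2134 ± 83 in iae1 (-0.29, adjusted p = 0.0184) and to 1958 ± 15.8 in iae2 (-0.42 ± 0.07, adjusted p = 0.000625). AT4G09890 fell from 368 ± 25 to 279.2 ± 20 in iae1 (-0.38, adjusted p = 0.0119) and to 267.3 ± 19.4 in iae2 (-0.44, adjusted p = 0.0017). The iae1 calls of AT2G05540 and AT4G09890 were lost without B1798 replicate 2 or iae1 replicate 3, among others (adjusted p up to 0.088 and 0.0578). With the ratio of 3' to 5' GAPDH signal as a covariate their iae2 calls were lost (-0.34, adjusted p = 0.157, and -0.55, adjusted p = 0.081). The iae1 call of AT2G05540 was lost in that fit too (-0.27, adjusted p = 0.0505), and that of AT4G09890 was not (adjusted p = 0.0242).

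Other iae1 falls were those of AT4G09760, of the choline and ethanolamine kinase family (log2 fold change -0.35, adjusted p = 0.018), AT2G12400 (-0.36, adjusted p = 0.045) and AT2G04400, which encodes indole-3-glycerol phosphate synthase of tryptophan synthesis (-0.31, adjusted p = 0.0384). The ninth called fall was AT2G04690 (-0.29, adjusted p = 0.03), which lies outside the rule for named genes and was added after its values were seen. Each of these 4 calls was lost when some arrays were left out, 8 of 9 in the case of AT2G12400. AT2G04400 had 418 ± 21.8 in B1798, 334 ± 28.9 in iae1 and 348 ± 30.4 in iae2, where it did not pass (-0.26, adjusted p = 0.0519). In all, 7 of the 17 iae1 calls held whichever array was left out. The count of calls fell to 8 without iae1 replicate 3, 9 without B1798 replicate 2 and 11 without iae1 replicate 2. Shares of all probe sets called in these fits are not given here.

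The iae1 calls were spread over the ranges of chromosomes 1 to 4, with 1 of 45, 8 of 75, 4 of 55 and 4 of 64 members. In the chromosome 5 range 0 of 62 members were called by limma, where 7.21% of all tested probe sets were, and 9 of 62 had an unadjusted p below 0.05. Whether the ranges differ was not tested. Pseudogenes had 0 of 43 calls in iae1, beside the same 7.21% of all tested probe sets, with 4 at an unadjusted p below 0.05. These small counts are no result about the chromosome 5 range or the pseudogenes.

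The locus AT5G28110 is not a member and is read by a probe set open to cross-hybridisation. It was listed at 165.9, 234.5 and 199.9 in iae1 and at no more than 3.1 on any other array. The nearest members on either side of it did not change with it. AT5G28060, another gene of a small-subunit ribosomal protein, had 736 ± 117 in B1798, 761 ± 98.8 in iae1 and 967.3 ± 175 in iae2 (log2 fold change 0.05 in iae1, adjusted p = 0.875). AT5G28150 had 103 ± 18, 107 ± 11.7 and 113 ± 13 (0.05 in iae1, adjusted p = 0.848).

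**Figure D2:**
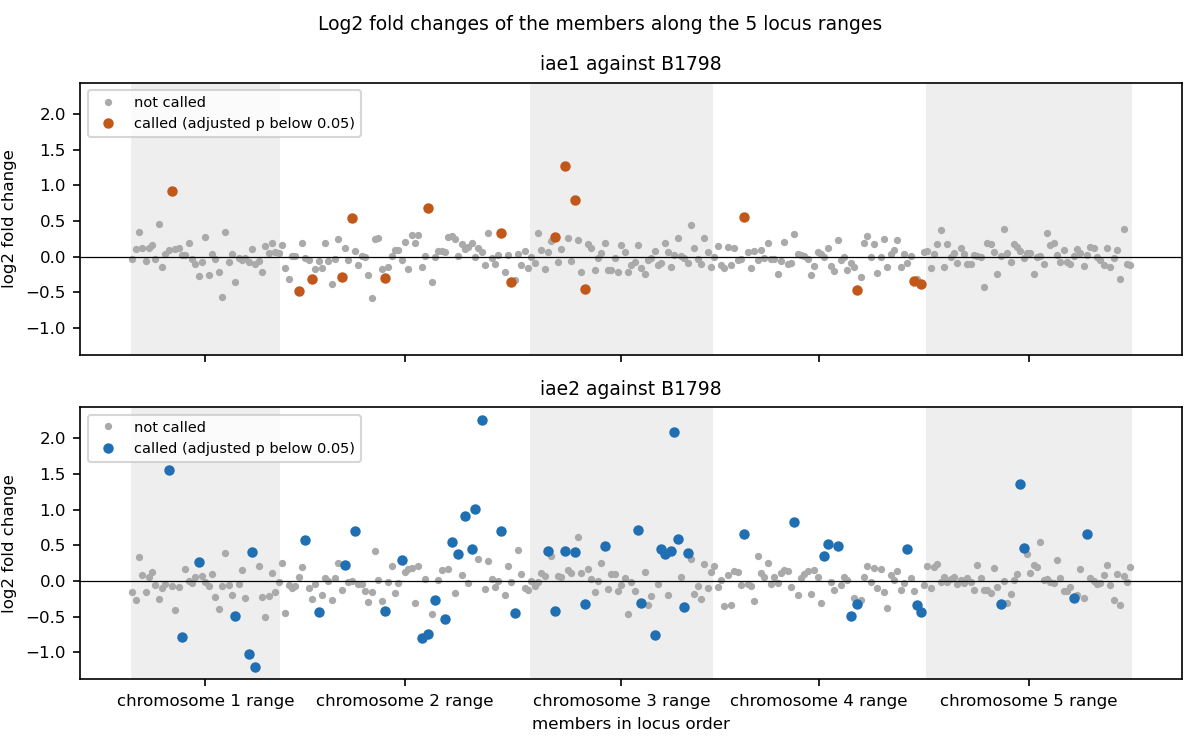
Log2 fold changes of the 301 members against B1798 in locus order, by range, for iae1 (upper panel) and iae2 (lower panel); coloured points were called at an adjusted p below 0.05. In iae1 the 17 calls lie between -0.48 and 1.28. The chromosome 5 range holds 0 calls among 62 members in iae1, where 7.21% of all tested probe sets were called. In iae2 the 56 calls lie between -1.20 and 2.26 in all 5 ranges.

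The comparison of iae2 with B1798 puts the same question to the second line. Of 301 members 56 were called (18.6%), 34 higher and 22 lower. The background over all tested probe sets was 17.8%, with 9.77% higher and 7.99% lower, and outside the ranges 16.1% of locus-code genes. The members' share is again near the background. All iae2 arrays had a lower GAPDH ratio, at most 1.98, than the B1798 and iae1 arrays, which had at least 2.27. The ratio and the iae2 line therefore cannot be told apart, and a fit with the ratio as a covariate estimates the line difference less precisely. A call lost in that fit does not settle what the change came from. With that covariate 13 members were called, 12 of them among the 56. The share of all probe sets called in that fit is not given here, so the smaller count is no result about the members. For 97 members (32.2%) the iae2 and B1798 arrays were without overlap, against 33.3% of all probe sets. At 2-fold or more 7 of 301 members were called, 5 higher and 2 lower, where 1.27% of all probe sets were. Of the 5 higher, AT2G07777 and AT3G43740 became members through iae2 alone, so the rule favoured their being counted.

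The 2 strongest rises in iae2 came from genes with low signals in the other lines. AT2G07777 gave 3.2, 3.2 and 3.8 in B1798, 3.1, 2.9 and 7.1 in iae1, and 69.8, 87.8 and 74.3 in iae2. AT3G43740, of the leucine-rich repeat protein family, gave 2.1, 11.3 and 8.3 in B1798, 7.8, 7.5 and 6.4 in iae1, and 85.9, 85.4 and 74.9 in iae2. Both were under the filter level on every B1798 and iae1 array and above it on every iae2 array. They became members through iae2 alone, so that a difference was bound to appear. The log2 fold changes were 2.26 ± 0.15 (adjusted p = 3.53e-08) for AT2G07777 and 2.10 ± 0.16 (adjusted p = 1.84e-07) for AT3G43740. Without the 4 members that passed through 1 line only, 54 of 297 were called in iae2 and 17 of 297 in iae1. Of all tested probe sets 17.8% and 7.21% were called.

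AT1G35612, a pseudogene in the gene table, gave 27.6, 23.8 and 12.7 in B1798, 30.4, 15.8 and 25 in iae1, and 73.3, 93.9 and 114.7 in iae2. It was the 1 member pseudogene that rose, from 21.4 ± 7.74 to 94.0 ± 20.7 (log2 fold change 1.56 ± 0.18, adjusted p = 1.87e-05). AT5G27990, whose product carries the conserved region of the ribosomal RNA processing factor TSR2 of yeast, gave 49.0, 50.9 and 74.2 in B1798, 87.3, 45.4 and 56.5 in iae1, and 193.6, 160.1 and 165.9 in iae2. Each iae2 array was above every other array (1.37 ± 0.17, adjusted p = 2.76e-05). With the GAPDH ratio as a covariate AT5G27990 stayed called (1.71, adjusted p = 0.00709) and AT1G35612 did not (1.17, adjusted p = 0.0819).

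Smaller rises in iae2 joined these. AT2G04795 had 130.4, 128.5 and 156.3 in B1798, 139.4, 143.5 and 157.0 in iae1, and 240.2, 216.5 and 249.3 in iae2 (log2 fold change 0.71 ± 0.09, adjusted p = 5.88e-05). AT3G43110 rose from 60.6 ± 4.18 to 110 ± 7.45 (0.72 ± 0.09, adjusted p = 6.5e-05). For both the iae2 arrays were above all others, and both stayed called with the covariate (adjusted p = 0.0123 and 0.0279). AT4G05460, of an F-box family with leucine-rich repeats, rose from 70.4 ± 12.1 to 137 ± 22.3 (0.83 ± 0.12, adjusted p = 0.000194). AT5G33370, a GDSL-type lipase gene of the cutin synthase group, rose from 64.3 ± 11.1 to 110 ± 0.917 (0.66 ± 0.11, adjusted p = 0.000732). With the covariate the calls of AT4G05460 (0.61, adjusted p = 0.199) and AT5G33370 (0.27, adjusted p = 0.517) were lost.

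AT2G10940, which encodes a protein of the lipid transfer and seed albumin superfamily, rose in both iae lines. Its signals were 666.9, 785.2 and 780.8 in B1798, 989.1, 908.8 and 914.3 in iae1, and 1120.9, 1317.0 and 1228.3 in iae2. The 3 lines did not overlap. The log2 fold change was 0.33 ± 0.09 for iae1 (adjusted p = 0.0287) and 0.70 ± 0.09 for iae2 (adjusted p = 2.84e-05). The iae1 call was lost without B1798 replicate 1 or any iae1 array (adjusted p up to 0.108) and with array medians set equal.

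**Figure D3:**
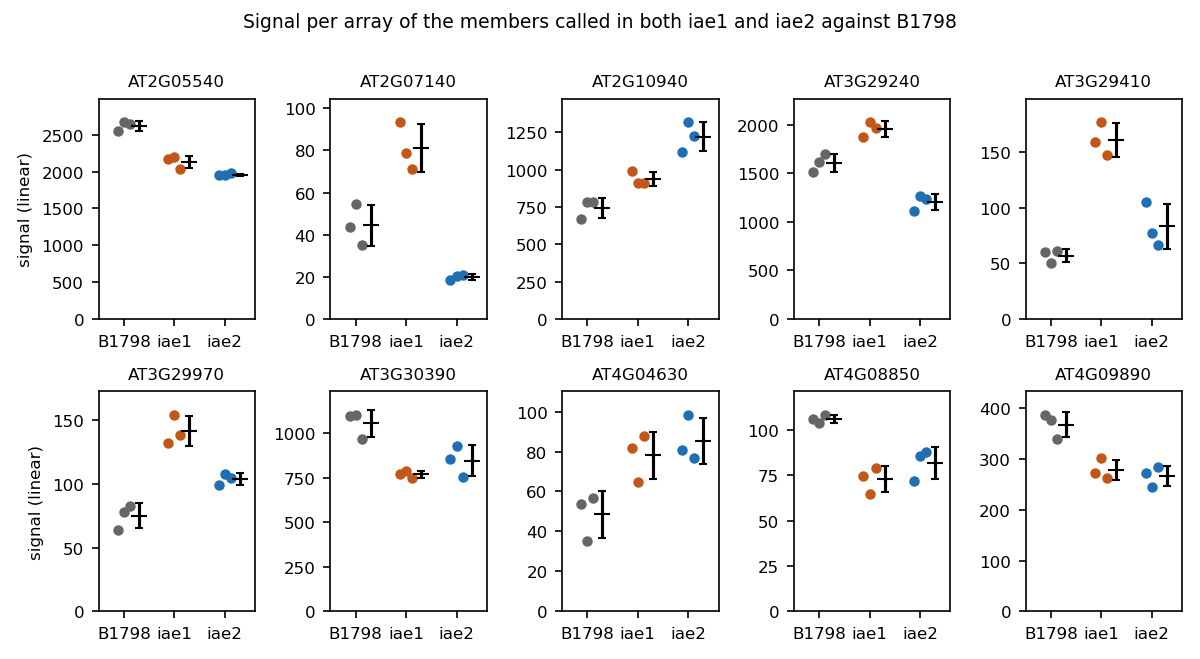
Signal on each array (points, linear scale) with mean and SD (bars) for the members called in both iae1 and iae2, whose comparisons share the B1798 arrays. AT2G07140 and AT3G29240 are high in iae1 and low in iae2, while AT3G29410 and AT2G10940 are above B1798 in both.

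The 2 deepest falls in iae2 were in the chromosome 1 range. AT1G43040, of the family of small auxin-up RNA genes, which auxin induces quickly, gave 22.5, 40.7 and 32.1 in B1798, 31.3, 36.4 and 18.5 in iae1, and 7.0, 2.5 and 4.3 in iae2 (log2 fold change -1.20 ± 0.18, adjusted p = 0.000259). AT1G42705, a pseudogene read by a probe set that can detect several transcripts, gave 62.8, 56.7 and 74.2 in B1798, 48.1, 58.1 and 77.5 in iae1, and 25.4, 24.3 and 20.7 in iae2 (-1.03 ± 0.14, adjusted p = 7.72e-05). In both cases iae1 overlapped B1798 and every iae2 array was lower. AT1G36060, which encodes a transcription factor of the AP2/ERF family, gave 63.6, 64.9 and 63.0 in B1798, 59.8, 63.6 and 72.0 in iae1, and 29.9, 27.0 and 34.4 in iae2 (-0.78 ± 0.11, adjusted p = 8.02e-05). With the GAPDH covariate AT1G36060 stayed called (-0.79, adjusted p = 0.0499). AT1G42705 kept its size but not its call (-1.02, adjusted p = 0.0562), and AT1G43040 was at -0.79 (adjusted p = 0.265).

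On the other chromosomes, AT2G07000 fell from 72.2 ± 13.1 to 34.5 ± 3.8 (log2 fold change -0.80 ± 0.14, adjusted p = 0.000718). AT3G43430, a RING-type zinc finger gene of a group that includes ubiquitin ligases, fell from 168 ± 28 to 91.9 ± 3.3 (-0.76 ± 0.11, adjusted p = 0.000192). In iae1 these genes had 64.1 ± 12.8 and 177 ± 22.3, within the spread of B1798. AT4G08780, of the class III peroxidases that oxidise phenolics in cell walls, fell from 38.0 ± 4.79 to 22.6 ± 5.01 (-0.49 ± 0.13, adjusted p = 0.0174), a call lost without B1798 replicate 2 or iae2 replicate 2 or 3 (adjusted p up to 0.0775). None of these 3 falls passed with the GAPDH covariate. AT2G07000 kept its size (-0.81, adjusted p = 0.134), AT3G43430 was at -0.30 (adjusted p = 0.421) and AT4G08780 at -0.38 (adjusted p = 0.508). AT5G27850, a gene of a large-subunit ribosomal protein, fell from 2020 ± 157 to 1615 ± 127 (-0.32 ± 0.08, adjusted p = 0.0138). That call was lost without B1798 replicate 2 or 3 or iae2 replicate 1 (adjusted p up to 0.0628), and with the covariate the change was -0.07 (adjusted p = 0.858).

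A stretch of the chromosome 2 range has a particular origin. Beside the centromere of chromosome 2 lies a nuclear copy of much of the mitochondrial genome, and the 13 members from AT2G07678 to AT2G07777 belong to locus numbers there. Of their probe sets 10 are of the kind that can detect several transcripts, and signal from the mitochondrion and from the nuclear copy cannot be told apart. In iae2 7 of the 13 were called, 6 higher and 1 lower, where 17.8% of all probe sets were, and 1 of the 7, AT2G07777, was a member through iae2 alone. In iae1 0 were called by limma, where 7.21% of all probe sets were, with 2 at an unadjusted p below 0.05. Without these 13 members 49 of 288 were called in iae2 (17.0%), and 17 of 288 in iae1.

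Within this stretch AT2G07741, annotated as subunit a of the mitochondrial ATP synthase, gave 156.2, 143.5 and 132.6 in B1798, 139.8, 156.2 and 133.2 in iae1, and 315.8, 297.8 and 306.8 in iae2. The iae2 signals were above all others with no overlap (log2 fold change 1.01 ± 0.09, adjusted p = 6.82e-07, or 0.84, adjusted p = 0.00868, with the GAPDH covariate). AT2G07722 gave 27.3, 29.1 and 30.8 in B1798, 26.4, 37.6 and 33.6 in iae1, and 73.3, 71.8 and 61.6 in iae2 (0.91 ± 0.12, adjusted p = 5.96e-05). AT2G07691 fell in iae2 from 23.2 ± 2.57 to 11.6 ± 5.67 (-0.53 ± 0.16, adjusted p = 0.0351), a level under the filter, and its call was lost without any B1798 array or iae2 replicate 1 or 2 (adjusted p up to 0.165). The rise of AT2G07739 from 32.4 ± 1.62 to 50.3 ± 7.98 (0.45, adjusted p = 0.0376) was lost without any B1798 array or iae2 replicate 2 or 3, and with array medians set equal. AT2G07718 (0.39, adjusted p = 0.0448) and AT2G07705 (0.55, adjusted p = 0.0252) also rose in iae2, and both calls were lost when some arrays were left out. The other 6 members of the stretch did not pass in iae2. The called members did not all go the same way, and whether the stretch moved as a block was not tested.

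**Figure D4:**
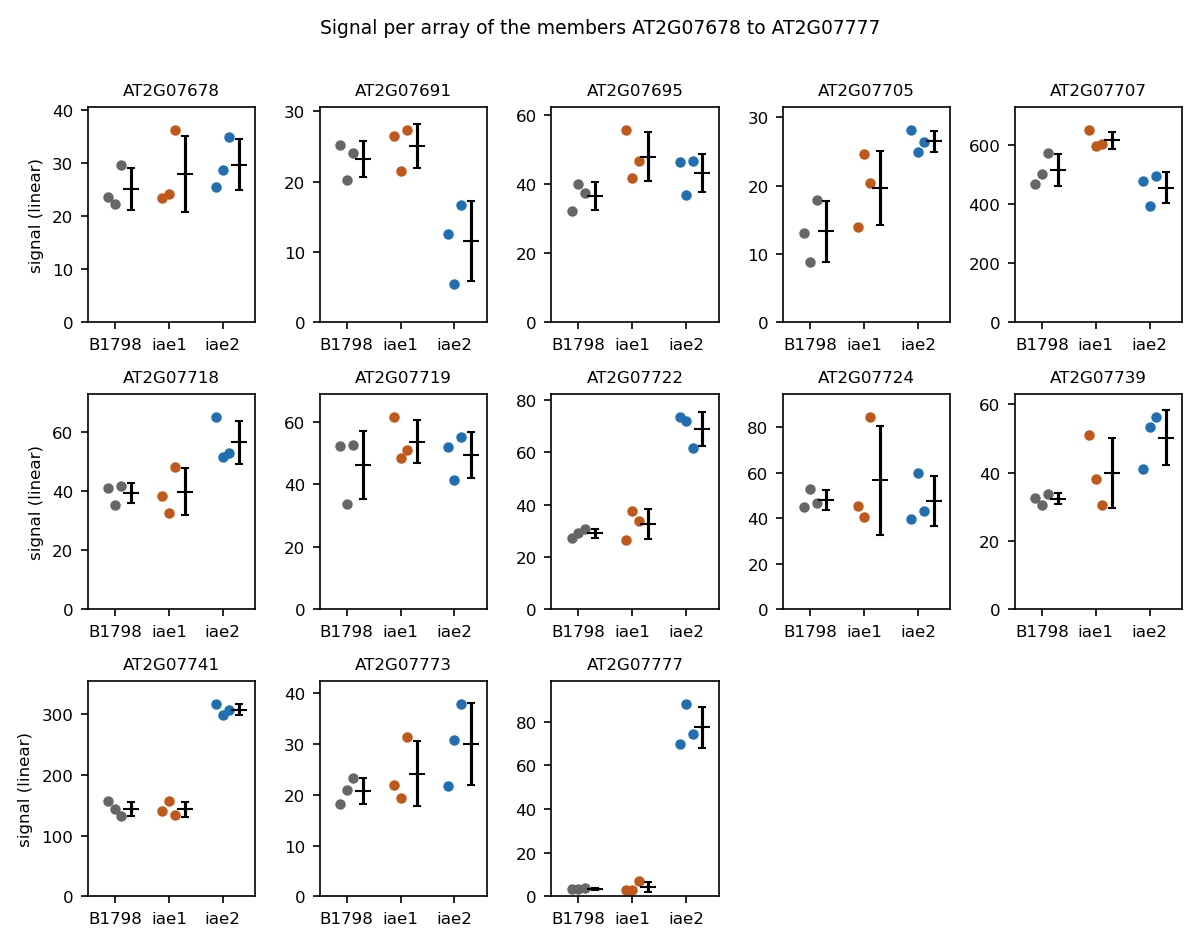
Signal on each array (points, linear scale) with mean and SD (bars) for the 13 members from AT2G07678 to AT2G07777, whose locus numbers fall in the nuclear copy of mitochondrial DNA on chromosome 2. AT2G07705, AT2G07718, AT2G07722, AT2G07741 and AT2G07777 are higher on every iae2 array than on all others, AT2G07705 by little, and AT2G07691 is lower.

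By range, iae2 calls numbered 7 of 45 members on chromosome 1, 18 of 75 on chromosome 2, 16 of 55 on chromosome 3, 10 of 64 on chromosome 4 and 5 of 62 on chromosome 5. The shares ran from 8.06% on chromosome 5 to 29.1% on chromosome 3, beside 17.8% over all tested probe sets. The difference between ranges was not tested. Of the 56 calls, 32 held whichever array was left out.

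The direct comparison of iae1 with iae2 called 61 of 301 members (20.3%), 29 higher and 32 lower in iae1. The background over all probe sets was 19.6%, with 9.44% higher and 10.2% lower, and outside the ranges 17.8% of locus-code genes. For 103 members (34.2%) the arrays were without overlap, against 35.8% of all probe sets. At 2-fold or more 7 members were called, where 1.38% of all probe sets were, and AT2G07777 and AT3G43740 among the 7 were members through iae2 alone. A moderated F test over the 3 lines called 70 members (23.3%), against 24.4% of all tested probe sets. With the GAPDH covariate the direct comparison called 26 members and the F test 38, again without a share of all probe sets to set beside them.

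Among the members called against B1798 in both lines, AT2G07140 and AT3G29240 went in opposite directions. AT2G07140, read by a probe set open to cross-hybridisation, gave 43.7, 54.7 and 35.2 in B1798, 93.3, 78.9 and 71.2 in iae1, and 18.4, 20.3 and 21.1 in iae2. The lines did not overlap, with B1798 between the others. The log2 fold change was 0.69 ± 0.13 for iae1 (adjusted p = 0.00447), -0.74 ± 0.13 for iae2 (adjusted p = 0.00093) and 1.43 ± 0.13 between the iae lines (adjusted p = 1.51e-06). AT3G29240 gave 1510.6, 1615.3 and 1692.8 in B1798, 1866.8, 2021.7 and 1968.5 in iae1, and 1105.9, 1260.5 and 1239.1 in iae2. Its order was the same, with smaller changes of 0.28 ± 0.08 (adjusted p = 0.0429) for iae1, -0.41 ± 0.08 (adjusted p = 0.00158) for iae2 and 0.69 ± 0.08 (adjusted p = 1.35e-05) between the iae lines. With array medians set equal the iae1 call of AT3G29240 was lost, as it was without any of 7 of the 9 arrays (adjusted p up to 0.145). With the GAPDH covariate the iae2 calls of both genes were lost, AT2G07140 with no smaller a change (-0.81, adjusted p = 0.114) and AT3G29240 at -0.22 (adjusted p = 0.43).

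Of the 43 member pseudogenes 3 were called in iae2, where 17.8% of all probe sets were, and 5 between the iae lines, where 19.6% were. Whether pseudogenes differ from other members was not tested, and 25 of the 43 had a mean signal under 32. Beside AT1G35612 and AT1G42705, AT2G04460 fell in iae2 from 86.0, 89.1 and 98.6 in B1798 to 69.2, 59.6 and 61.7 (log2 fold change -0.43 ± 0.11, adjusted p = 0.00976), with 97.5, 90.4 and 73.5 in iae1. With the GAPDH covariate the change was -0.27 and did not pass (adjusted p = 0.558). AT1G35513, which passed the filter through iae1 alone, gave 31.5, 30.3 and 38.1 there, 18.1, 19.3 and 22.7 in B1798 and 12.3, 16.5 and 14.3 in iae2. Since it is a member through its iae1 arrays, a difference from the other lines was bound to appear. Its log2 fold change was 0.70 ± 0.13 between the iae lines (adjusted p = 0.0016) and did not pass in iae1 against B1798 (0.45, adjusted p = 0.0544). AT2G06480, on a probe set that can detect several transcripts, had 29.2 ± 4.25 in iae1 and 16.0 ± 3.19 in iae2 (0.50, adjusted p = 0.0195). Thus 1 pseudogene rose in iae2, 2 fell, and the other 40 did not pass there.

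**Figure D5:**
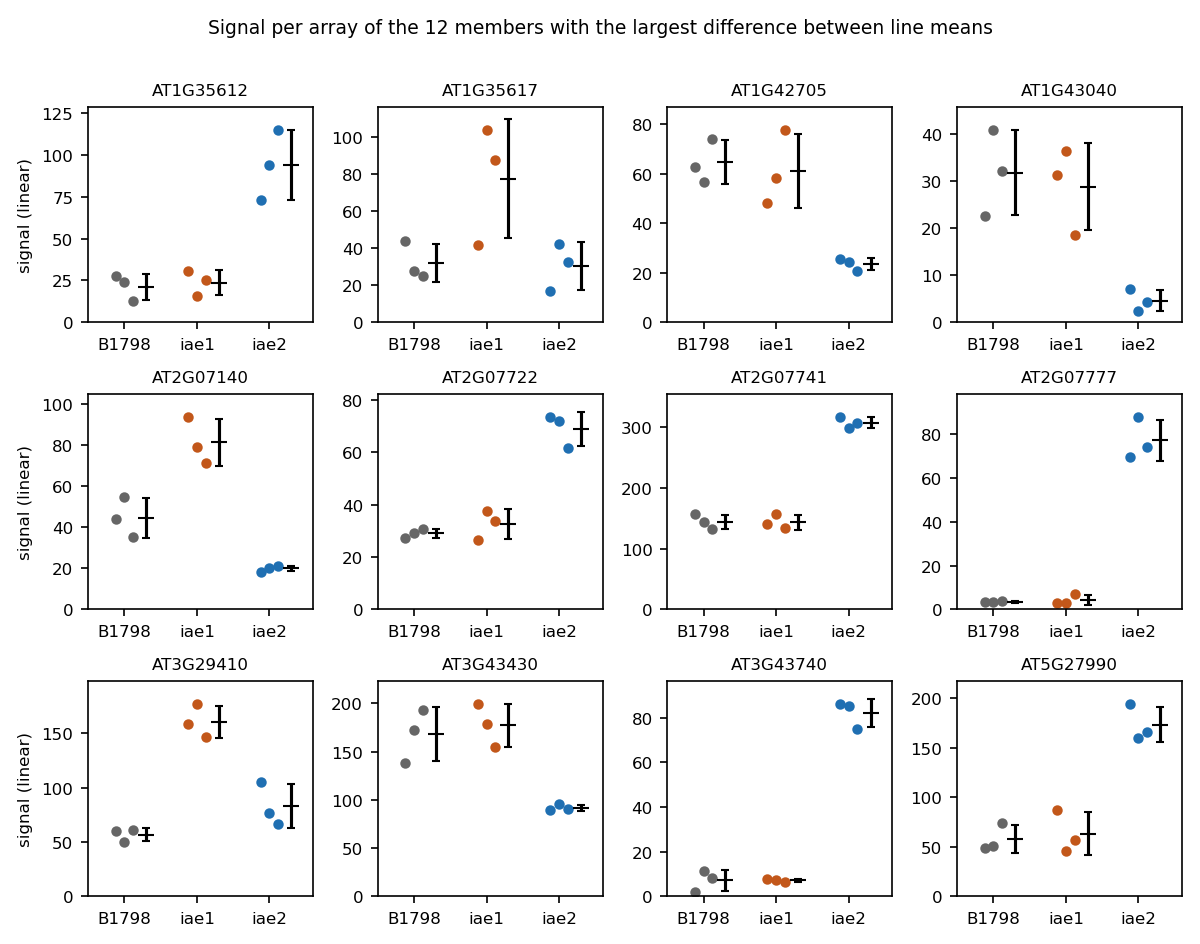
Signal on each array (points, linear scale) with mean and SD (bars) for the 12 members with the largest difference between line means on the log2(signal + 16) scale. In AT1G35612, AT2G07722, AT2G07741, AT2G07777, AT3G43740 and AT5G27990 the 3 iae2 arrays stand above all others, and in AT1G42705, AT1G43040 and AT3G43430 below.

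Neighbouring members were looked at in pairs. In the order of all tested genes with a locus, 261 pairs of members were next to each other. In iae2 both genes were called in 9 pairs (3.45%), against 3.3% of 7640 neighbouring pairs over all tested genes, so the count is no result about the ranges. The direction was the same in 6 and opposite in 3. Over all tested genes it was the same in 53.2% of the pairs with both genes called, and the difference was not tested. In all 9 pairs at least 1 of the calls was lost when some array was left out. In iae1 0 pairs were called by limma, against 0.432% of pairs over all tested genes, so this count too is no result about the ranges. In 7 pairs both genes had an unadjusted p below 0.05 in iae1. AT5G27990 and AT5G28040, a gene of a DNA-binding storekeeper-type family, both rose in iae2 (log2 fold change 1.37 and 0.47, adjusted p = 0.037 for AT5G28040) with 4 genes of the table between them. The AT5G28040 call was lost without B1798 replicate 1 or 2 or iae2 replicate 2 or 3 (adjusted p up to 0.149), with array medians set equal, and with the GAPDH covariate (0.69, adjusted p = 0.224). AT3G43740 and AT3G43670, a copper amine oxidase gene, both rose (2.10 and 0.42, adjusted p = 0.0153 for AT3G43670), with 15 genes between. AT3G43740 was a member through iae2 alone. The AT3G43670 call was lost without B1798 replicate 1 or iae2 replicate 1, and with the GAPDH covariate (0.55, adjusted p = 0.203).

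The other pairs with 1 direction in iae2 changed less. They were AT3G43520, of a transmembrane family that includes fatty acid exporters of the plastid, with AT3G43540 (log2 fold change 0.45 and 0.38), AT4G08240 with the glutaredoxin-like gene AT4G08280 (0.35 and 0.53), AT4G09830 with AT4G09890 (-0.34 and -0.44), and AT2G07739 with AT2G07741. The pairs in opposite directions were AT1G42705 with AT1G42960 (-1.03 and 0.41), AT3G43110 with AT3G43230 (0.72 and -0.30), and AT3G44070 with AT3G44100, which encodes a protein with an ML lipid-binding domain (-0.36 and 0.39). These pairs had between 1 and 29 genes of the table between their members. With the GAPDH covariate only AT2G07741 and AT3G43110 of these genes stayed called in iae2. AT3G43520 was then at 0.15 (adjusted p = 0.666) and AT4G08280 at 0.24 (adjusted p = 0.413). AT4G09890 was at -0.55 (adjusted p = 0.081), no smaller than before.

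Between the iae lines 9 pairs were called as well (3.45%, against 3.7% of pairs over all tested genes), and in 7 of them a call was lost when some array was left out. The direction was the same in 6 of the 9, beside 53.7% of the pairs over all tested genes with both genes called. AT2G04790 and AT2G04795 are next to each other in the gene table and went opposite ways, the first higher in iae1 (0.54, adjusted p = 0.000827) and the second higher in iae2 (-0.63 for iae1 against iae2, adjusted p = 0.000172). AT1G35612 and AT1G35617 also differed in opposite directions (-1.47 and 0.99). The AT1G35617 arrays of the iae lines overlapped, and its call was lost without iae1 replicate 2 or iae2 replicate 1 (adjusted p up to 0.0592). Pairs higher in iae1 than in iae2 were AT5G27760, of the hypoxia-responsive family, with the ribosomal protein gene AT5G27770 (0.32 and 0.35), AT5G27850 with AT5G27860 (0.33 and 0.39) and AT5G32440 with the RNA-binding protein gene AT5G32450 (0.24 and 0.31). With the GAPDH covariate AT5G27760 (0.20, adjusted p = 0.26) and AT5G27850 (0.16, adjusted p = 0.337) lost their calls. So did AT5G32440 (0.23, adjusted p = 0.16) and AT5G32450 (0.28, adjusted p = 0.134). AT5G27770 and AT5G27860 stayed called in that fit, but lost their calls without some single arrays (adjusted p up to 0.14 and 0.165).

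The genes that keep pericentromeric chromatin silent could not be read here. A list of 40 mixed such genes with DNA demethylase genes and loci known to come on when silencing fails. Of these 1 was tested, the DNA demethylase gene DME, which is not itself a gene that keeps chromatin silent. It had 25.8 ± 3.54 in B1798, 24.4 ± 5.5 in iae1 and 27.0 ± 1.93 in iae2. Neither change passed, at -0.06 for iae1 (adjusted p = 0.862) and 0.04 for iae2 (adjusted p = 0.876) on the log2 scale. For 38 of the 40 no probe set was named in the annotation used, and the centromeric histone gene CENH3 was below the filter.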

How the data were processed

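Total RNA was labelled as biotin cRNA from oligo-dT primed cDNA and hybridised to ATH1 arrays, per the labels' protocols. The deposited values are intensity signals on a linear scale for 22810 probe sets, from 0 to 8093. Their mean after trimming 2% at each end was 100 on every array, so the authors had scaled them before deposition. How probes were summarised is not given in the sources used here. Precision is limited by having 3 arrays a line.

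Of the probe sets, 14404 passed the filter on low signals. Values were taken as log2(signal + 16), which understates changes of dim genes, and fitted with limma 3.58.1 in R 4.3.3 with a mean per line and an intensity trend on all 9 arrays. Tests were two-sided, with Benjamini-Hochberg adjustment over all tested probe sets and a call at 0.05. The fit was tested on simulated data. Names came from the platform annotation, and gene types and order from a gene table of TAIR10.1. No coordinates are given because no build is named.

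Named genes followed a rule: per contrast the 8 largest called rises and falls without overlap between the arrays of the lines, members called in both iae lines, called pseudogenes, the 5 highest signals, the 3 largest and 3 smallest line differences, called neighbours, and the members next to AT5G28110. Members, lists and rule were chosen with earlier results of these data known. The settings tried changed the pseudocount, floor, scaling, filter, variance model, array weights, lines in the fit, threshold, member choice, block and covariate, and left out each array. Figures used Python 3.11.15 and matplotlib 3.10.9.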

Additional observations from a re-analysis of the deposited data

Results flagged for a closer look

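AT2G07140 and AT3G29240 stood out because their changes against B1798 differed between the iae lines. That difference is the contrast iae1 against iae2. Both genes were picked for opposite calls against the same B1798 arrays, so a small p there was bound to appear and is no separate test. For AT2G07140 the difference was 1.43 on the log2 scale (adjusted p = 1.51e-06), with all 3 iae1 arrays above and all 3 iae2 arrays below B1798. For AT3G29240 it was 0.69 (adjusted p = 1.35e-05), with the same order of the lines. With the GAPDH covariate the iae2 calls of both genes were lost (adjusted p = 0.114 and 0.43), while the difference between the iae lines stayed called. The groups held 3 arrays, too few for a test of single outlying arrays.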

How the results depend on the processing

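With an adjusted p below 0.01 the called members numbered 7 in iae1, 32 in iae2, 33 between the iae lines and 39 over any line. A fit with the GAPDH ratio as covariate gave 13 in iae2, 26 between the iae lines and 38 over any line, and 12 in iae1. Leaving out each array in turn gave 8 to 17 calls in iae1, 42 to 57 in iae2, 42 to 63 between the iae lines and 52 to 69 over any line. For these and the other settings the share of all probe sets called is not given here, so the counts are no result about the members. All other settings tried kept these counts within 1.5 times their main value, among them 3 chosen after seeing the data, which left out the pseudogenes, the members that passed through 1 line only, or the stretch AT2G07678 to AT2G07777. With array medians set equal, 31.6% of the called members were higher in iae1 in place of 47.1%, and 50.0% in iae2 in place of 60.7%. Over all probe sets these shares went from 52.6% to 39.9% and from 55.0% to 41.8%, so there the prevailing direction changed with the scaling. Among the members lower calls prevailed in iae1 under both scalings. In iae2 the excess of higher calls gave way to an even split. With the replicate block 16, 54, 56 and 64 members were called. Same-numbered arrays of different lines had correlations of -0.15 to 0.14 between their deviations, and 4 of 9 arrays correlated best with their own number. The check showed no pairing by number, but with 3 arrays a line it cannot exclude one. For the named genes no called change reversed under any setting tried, and 254 recomputed values lost their call, while 22 gained one and 3528 stayed on their side. Signals near the filter level of 23.2 to 26.0 limit what can be said of the pseudogenes.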

Other observations

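A further 41 tested genes lie in the same locus ranges but carry gene names. In iae1 6 of them were called, 3 higher and 3 lower, where 7.21% of all probe sets were, and in iae2 9, 5 higher and 4 lower, where 17.8% were. The examples here were chosen after their values were seen. ALN, the allantoinase gene of purine breakdown, fell from 304 ± 27.5 (SD, n = 3) in B1798 to 207 ± 9.74 in iae1 (log2 fold change -0.52, adjusted p = 0.000889) and 161 ± 2.68 in iae2 (-0.85, adjusted p = 2.48e-06). EXO, a cell-expansion gene that brassinosteroids induce, rose in iae1 from 573 ± 17.8 to 773 ± 93.5 (0.42, adjusted p = 0.00768) and had 559 ± 32.1 in iae2. ATG8B, a ubiquitin-like gene of autophagy, fell in iae2 from 463 ± 45.8 to 349 ± 24.4 (-0.39, adjusted p = 0.00489).

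MSRB5 and MSRB6, neighbouring methionine sulfoxide reductase genes of the chromosome 4 range, rose in iae2 from 1271 ± 49.7 to 1825 ± 231 and from 144 ± 12.6 to 294 ± 24.8 (log2 fold change 0.51 and 0.96). In iae1 MSRB5 fell to 794 ± 137 (-0.68, adjusted p = 0.00152) and MSRB6 had 157 ± 24.7 (0.10, adjusted p = 0.644). With these 41 genes added, 23 of 342 genes were called in iae1, 65 in iae2 and 72 between the iae lines. Of all tested probe sets 7.21%, 17.8% and 19.6% were called.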
